A study of Homo sapiens with 96 samples.

Results

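Aminoacyl-tRNA synthetases are the enzymes that load each amino acid onto its transfer RNA. The genes described here are the 37 entries of the count table that carry the symbols of 19 cytosolic synthetases, 16 mitochondrial synthetases (symbols ending in 2) and the 2 scaffold proteins AIMP1 and AIMP2. They were picked by symbol out of 44659 entries, by a rule that uses no measured value, but with earlier results of these data known. Of the 37 members, 33 passed the filter on low counts and were tested among 14948 genes: 17 cytosolic synthetases, 14 mitochondrial synthetases and both scaffold proteins.

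A375, a long-established line of human melanoma cells, gave all 96 libraries. Cells were kept for 18 h in DMSO or in MAPKi, that is 500 nM vemurafenib and 500 nM cobimetinib, inhibitors of the BRAF and MEK kinases of the MAPK pathway. They were then harvested at 0, 1, 3 and 5 h in 4 arms: vehicle, cycloheximide at 100 µg/ml (CHX, which stops translation elongation), triptolide at 25 µM (T, which stops transcription) and triptolide with cycloheximide given 5 min earlier (TCHX), with 3 libraries in each of the 32 groups. All groups share the 1 cell line, lysis that keeps cytoplasmic RNA, 500 ng of RNA as input, and QuantSeq, which sequences from the poly(A) tail and so reads the 3′ end of a transcript whatever its length. Because equal amounts of RNA from many cells entered each library, a level is a share of the RNA sampled, and fewer cells or less RNA per cell cannot be told apart from it. The labels number the 3 libraries of a group without saying whether they came from separate cultures, so the p-values below measure the spread between these libraries.

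Cytosolic synthetases serve the translation of nuclear-encoded mRNAs, and a separate set, encoded in the nucleus and imported, serves the ribosomes inside mitochondria. GARS1 and KARS1 supply both compartments from a single gene. EPRS1 is a fusion enzyme that loads both glutamate and proline, and FARSA and FARSB are the α and β subunits of 1 enzyme, phenylalanyl-tRNA synthetase. EPRS1, QARS1, RARS1, KARS1, MARS1, LARS1 and IARS1 sit in the multisynthetase complex, which AIMP1 and AIMP2 hold together with EEF1E1. Many cytosolic synthetase genes are known targets of ATF4, the transcription factor induced when amino acids run short, and the study these libraries belong to asked how MAPKi alters amino acid supply and mRNA decay.

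Libraries held between 2381351 and 12520154 counts (median 7143396), of which the 37 members took 0.300% to 0.431%. Replicates correlated at 0.943 to 0.977 (Pearson, log2 raw counts of the tested genes) and differed by more than sampling noise. The melanoma markers MITF, SOX10, S100B, S100A1, DCT and PMEL had counts in every library. Levels are given as CPM (edgeR's depth-normalized count, TMM-scaled). The pigment genes DCT and PMEL differed between the groups compared, with means of 54.9 and 1.15 CPM in DMSO and 2131 and 15.3 CPM in MAPKi at 0 h, and MLANA, TYR and TYRP1 had means of at most 0.543 CPM in DMSO and 2.82 CPM in MAPKi. The part of this marker difference in the results was not tested. All 10 MAPK feedback and target genes listed as a check of the labels were lower in MAPKi at 0 h. Among them, DUSP4, a phosphatase that dampens ERK, went from 237 ± 7.30 to 23.0 ± 2.14 CPM, SPRY4, a pathway inhibitor, from 133 ± 15.6 to 0.316 ± 0.281 CPM, and ETV5, an ETS factor, from 141 ± 4.67 to 1.90 ± 0.60 CPM (mean ± SD, n = 3).

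The 4 members that were not tested had next to no counts under their own symbols. IARS1 had 83 counts over all libraries, VARS1 had 11, and SARS2 and VARS2 had 0 in every library. The table also holds suffixed copies of some symbols, as alternative entries of the same gene. Together with these copies VARS1 reached 71 counts, SARS2 reached 92 and VARS2 reached 11, and CARS1 gained 779 on its own 16232. These 4 genes are therefore listed without a comparison, and the low counts do not show that the genes are silent.

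The members differ in how cleanly their reads can be assigned. EPRS1, FARSB, NARS1, RARS1, SARS1 and TARS1 share no exon with another gene in the GRCh38 annotation, and FARSB, for example, spans chr2:222566899-222656092 on the minus strand. HARS1 (chr5:140673035-140691537, minus strand) and HARS2 (chr5:140691430-140699305, plus strand) overlap head to head, and their counts, like those of MARS1 with DDIT3, KARS1 with TERF2IP, AIMP1 with TBCK and AIMP2 with EIF2AK1, may include reads of the partner, since the strand setting of the counting is not given in the sources used here. On the same strand HARS1 shares exon sequence with DND1, HARS2 with ZMAT2 and EARS2 with GGA2, which a strand setting does not separate.

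RefSeq promoter windows (GRCh38.p14, 250 bases before to 50 after an annotated start) were available for 32 of the 37 members, 11 of which have several starts, and LARS1, YARS1, VARS1, AARS2 and VARS2 had no window. The windows below show 3 of the members with the largest falls in MAPKi (FARSB, GARS1 and AIMP2, of which GARS1 and AIMP2 have a further start not shown), the 1 that rose (QARS1) and the HARS1 window, which shares 184 bases with that of HARS2. Each is 300 bases, 5′ to 3′ on the strand of its gene, and capitals mark 3 motifs searched on both strands: TGATGNAA, the composite element bound by ATF4 with C/EBP partners, CACGTG, the E-box bound by MYC and MITF, and CCGGAAG, a core bound by ETS factors.
FARSB: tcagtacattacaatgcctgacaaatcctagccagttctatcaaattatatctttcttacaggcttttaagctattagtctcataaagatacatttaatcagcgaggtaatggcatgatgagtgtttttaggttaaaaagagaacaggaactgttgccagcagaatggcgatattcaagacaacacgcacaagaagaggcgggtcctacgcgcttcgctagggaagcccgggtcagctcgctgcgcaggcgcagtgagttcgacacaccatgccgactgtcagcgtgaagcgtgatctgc
GARS1: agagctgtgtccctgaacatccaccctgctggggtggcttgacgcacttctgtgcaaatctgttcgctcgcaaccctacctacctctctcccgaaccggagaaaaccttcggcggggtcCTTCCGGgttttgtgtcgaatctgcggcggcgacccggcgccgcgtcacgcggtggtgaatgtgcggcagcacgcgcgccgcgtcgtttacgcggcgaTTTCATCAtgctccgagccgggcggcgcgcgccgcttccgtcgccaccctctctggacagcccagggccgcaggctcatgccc
HARS1: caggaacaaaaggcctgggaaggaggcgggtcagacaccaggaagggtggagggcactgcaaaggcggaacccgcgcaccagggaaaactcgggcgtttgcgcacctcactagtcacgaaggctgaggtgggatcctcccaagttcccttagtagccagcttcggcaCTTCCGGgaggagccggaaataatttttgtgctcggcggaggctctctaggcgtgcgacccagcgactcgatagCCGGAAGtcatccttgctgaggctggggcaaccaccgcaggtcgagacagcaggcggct
AIMP2: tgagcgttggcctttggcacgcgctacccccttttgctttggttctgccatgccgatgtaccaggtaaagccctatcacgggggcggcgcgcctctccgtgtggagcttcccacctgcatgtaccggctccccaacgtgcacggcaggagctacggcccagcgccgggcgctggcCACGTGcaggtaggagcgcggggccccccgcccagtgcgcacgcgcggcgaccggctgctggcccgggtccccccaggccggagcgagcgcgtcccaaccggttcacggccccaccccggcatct
QARS1: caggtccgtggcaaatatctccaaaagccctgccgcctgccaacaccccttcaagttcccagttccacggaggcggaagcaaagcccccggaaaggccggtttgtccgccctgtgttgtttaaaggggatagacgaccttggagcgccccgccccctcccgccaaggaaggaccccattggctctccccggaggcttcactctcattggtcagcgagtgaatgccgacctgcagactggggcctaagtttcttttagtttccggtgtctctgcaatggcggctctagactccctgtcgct

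The FARSB window lies at chr2:222656043-222656342 (minus strand), GARS1 at chr7:30594628-30594927 (plus), HARS1 at chr5:140691321-140691620 (minus), AIMP2 at chr7:6009315-6009614 (plus) and QARS1 at chr3:49104708-49105007 (minus). FARSB and QARS1 hold none of the 3 motifs, GARS1 holds an ATF4 element and an ETS core, HARS1 holds 2 ETS cores and AIMP2 holds an E-box. The further GARS1 window, not shown (chr7:30594485-30594784), holds an ETS core but no ATF4 element. That of AIMP2 (chr7:6009022-6009321) holds none of the 3 motifs. Counting a gene when any of its windows matched, TGATGNAA occurred in 7 of 16 cytosolic synthetases (AARS1, CARS1, GARS1, IARS1, MARS1, NARS1 and TARS1), in 1 of 14 mitochondrial synthetases (YARS2) and in neither scaffold gene, against 2.99% of the 11024 tested genes with a window and 4.46% of all 27305 genes with one. CCGGAAG occurred in 9 of 16 cytosolic and 7 of 14 mitochondrial synthetases, against 21.0% of tested genes, and CACGTG in 1 of 16 cytosolic synthetases, 3 of 14 mitochondrial synthetases and AIMP2, against 12.3%. No matches of different motifs overlapped in these 44 windows. A match is a run of letters and not a mapped binding site.

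The first comparison asked how 18 h of MAPKi had changed the synthetase mRNAs before any inhibitor of transcription or translation was added. At 0 h in the vehicle arm, 18 of the 33 members tested were lower in MAPKi than in DMSO and 1, QARS1, was higher (edgeR, adjusted p under 0.05). Over all genes tested, 24.0% were lower and 21.9% higher in the same comparison. The median log2 change of the members was −0.42, against 0.03 over all genes. By group, 10 of 17 cytosolic synthetases were lower and 1 was higher (median −0.63), 6 of 14 mitochondrial synthetases were lower (median −0.34), and both scaffold genes were lower. Scaling by total counts moved the median of all genes to 0.16 and left 14 members lower and 2 higher, SARS1 joining QARS1, with the members' median 0.45 below that of all genes under each scaling.

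**Figure D1:**
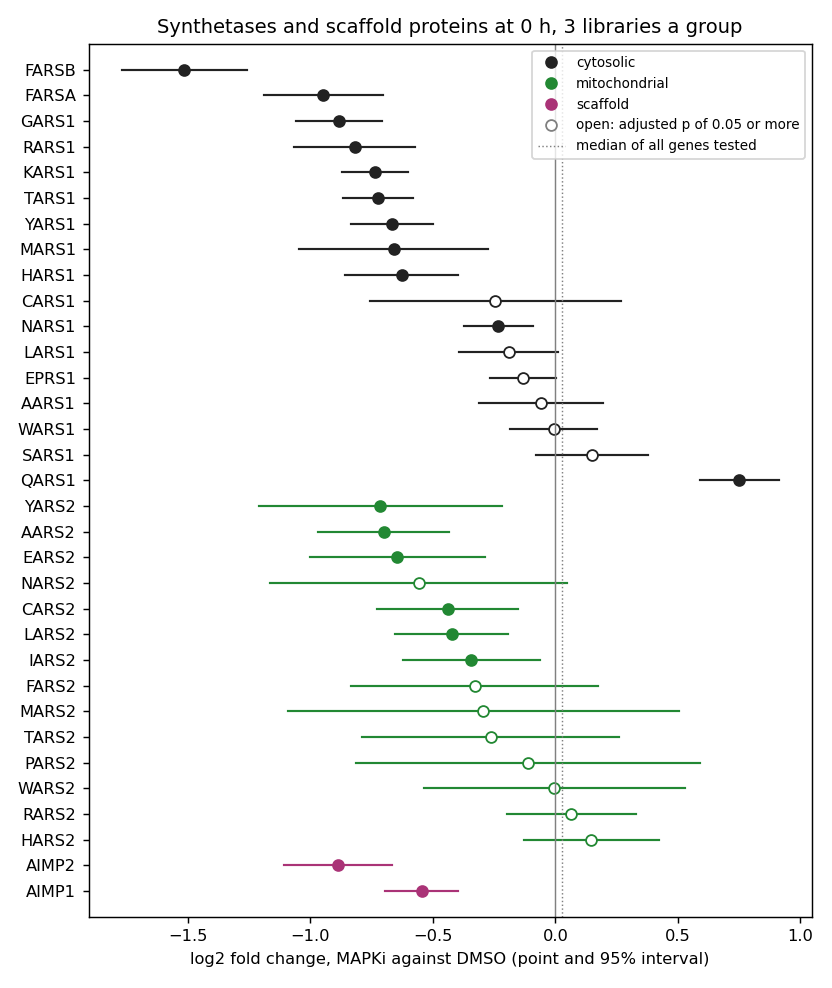
Log2 fold change of each tested member between MAPKi and DMSO, vehicle arm at 0 h, with its 95% interval, grouped as cytosolic (black), mitochondrial (green) and scaffold (purple). Filled points passed an adjusted p of 0.05. FARSB lies lowest at −1.51 and QARS1 alone lies clearly above 0, at 0.75.

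The members were also counted more deeply than most genes: their median of mean levels was 89.7 CPM (146 for cytosolic, 22.9 for mitochondrial) against 15.1 CPM over all genes tested. The part of this depth in the share of members called was not tested.

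FARSB, the β subunit of phenylalanyl-tRNA synthetase, showed the largest difference. Its 3 DMSO libraries at 0 h had 156, 129 and 153 CPM, and its 3 MAPKi libraries had 44.1, 60.6 and 48.9 CPM. Every MAPKi library thus lay below every DMSO library, and the log2 change was −1.51 (SE 0.13, edgeR adjusted p = 7.83e-17). FARSA, which encodes the catalytic α subunit, had 346, 301 and 283 CPM in DMSO and 163, 153 and 166 CPM in MAPKi. The groups did not overlap, and the fall of 0.95 on the log2 scale (SE 0.12, edgeR adjusted p = 7.17e-10) was smaller than that of its partner subunit, a difference between the genes that was not tested.

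GARS1 and KARS1, the synthetases for glycine and lysine that serve cytosol and mitochondria alike, were both lower. GARS1 had 177, 189 and 177 CPM in DMSO and 84.5, 103 and 107 CPM in MAPKi, a log2 change of −0.88 (SE 0.09, edgeR adjusted p = 1.02e-13). KARS1 changed by −0.74 (SE 0.07, edgeR adjusted p = 2.27e-15), from 379 ± 20.5 to 227 ± 3.00 CPM (mean ± SD, n = 3). RARS1, the arginyl enzyme, had 422, 351 and 326 CPM in DMSO and 201, 252 and 169 CPM in MAPKi, and changed by −0.82 (SE 0.13, edgeR adjusted p = 5.82e-08). In each of the 3 genes the libraries of the pretreatments were separate.

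The other cytosolic enzymes that fell were TARS1 (threonine, −0.73), YARS1 (tyrosine, −0.67), MARS1 (methionine, −0.66), HARS1 (histidine, −0.63) and NARS1 (asparagine, −0.23), with edgeR adjusted p from 6.28e-14 for TARS1 to 0.00553 for NARS1. MARS1 varied most within DMSO, at 76.9, 121 and 145 CPM, and its lowest DMSO library lay inside the MAPKi range of 62.8 to 83.0 CPM. AARS1 (alanine, −0.06), CARS1 (cysteine, −0.25), LARS1 (leucine, −0.19), WARS1 (tryptophan, −0.01) and SARS1 (serine, 0.15) did not pass the test. Of the 7 class I enzymes tested 3 were lower and 1 higher (median −0.25), and of the 9 class II enzymes 7 were lower (median −0.73). Class I and class II synthetases have unrelated catalytic folds, and no test was made between the classes.

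QARS1, which loads glutamine and belongs to the multisynthetase complex, moved the other way. Its DMSO libraries had 142, 146 and 133 CPM and its MAPKi libraries 238, 226 and 244 CPM. All MAPKi libraries lay above all DMSO libraries, and the log2 change was 0.75 (SE 0.08, edgeR adjusted p = 1.51e-12). EPRS1, the glutamyl-prolyl enzyme of the same complex, had 240, 255 and 249 CPM in DMSO and 205, 249 and 227 CPM in MAPKi. These groups overlapped, and the change of −0.13 (95% interval −0.27 to 0.003) had an edgeR adjusted p of 0.111. Of the 6 tested enzymes of the complex, KARS1, MARS1 and RARS1 were lower, QARS1 was higher, and EPRS1 and LARS1 did not pass.

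Among mitochondrial enzymes, YARS2 (tyrosine, −0.71), AARS2 (alanine, −0.70), EARS2 (glutamate, −0.65), CARS2 (cysteine, −0.44), LARS2 (leucine, −0.42) and IARS2 (isoleucine, −0.34) were lower in MAPKi, with edgeR adjusted p from 1.29e-05 for AARS2 to 0.0416 for IARS2. AARS2 had 56.0, 56.0 and 51.9 CPM in DMSO and 33.0, 35.1 and 32.7 CPM in MAPKi. EARS2 had 19.5, 21.3 and 22.3 CPM in DMSO and 9.73, 13.6 and 17.1 CPM in MAPKi. The libraries of the pretreatments did not overlap in either gene. NARS2 (−0.56), FARS2 (−0.33), MARS2 (−0.29), TARS2 (−0.26), PARS2 (−0.11), WARS2 (−0.004), RARS2 (0.07) and HARS2 (0.15) did not pass. For MARS2, NARS2 and PARS2, the members with the lowest counts, the 95% intervals reached from −1.09, −1.16 and −0.81 to 0.50, 0.05 and 0.59, which do not exclude a fall as large as that of AARS2.

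HARS1 and HARS2 start from the shared stretch of DNA shown above. HARS1 had 74.2, 79.5 and 84.3 CPM in DMSO and 49.4, 51.0 and 53.9 CPM in MAPKi, with no overlap. HARS2 had 22.0, 28.5 and 26.4 CPM in DMSO and 24.1, 30.2 and 31.3 CPM in MAPKi, which overlap. The histidyl enzyme of the cytosol was thus lower and that of mitochondria did not pass the test, and the difference between the neighbours was not tested.

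The scaffold genes were both lower. AIMP2, which binds several enzymes of the complex, had 95.2, 116 and 115 CPM in DMSO and 52.1, 64.2 and 60.2 CPM in MAPKi, a log2 change of −0.89 (SE 0.11, edgeR adjusted p = 2.12e-10). AIMP1, also secreted as a cytokine precursor, had 148, 149 and 147 CPM in DMSO and 98.4, 111 and 95.7 CPM in MAPKi, a change of −0.55 (SE 0.08, edgeR adjusted p = 4.58e-09). No library of 1 pretreatment reached the range of the other in either gene.

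The 4 vehicle times gave 12 libraries per pretreatment. Averaged over them, 24 members were lower and 1 was higher (all genes: 33.1% lower, 35.8% higher, 69.0% either), with 14 of 17 cytosolic and 8 of 14 mitochondrial synthetases lower. The largest changes were those of FARSB (−1.57), FARSA (−1.04), AARS2 (−0.90) and GARS1 (−0.89), with SE of 0.065, 0.062, 0.069 and 0.045 and edgeR adjusted p of at most 4.29e-20. In 8 cytosolic synthetases, 2 mitochondrial ones (AARS2 and EARS2) and both scaffold genes, every MAPKi library lay below every DMSO library, and in QARS1 every one lay above, whereas the other 20 tested members overlapped. Over all genes, 13.2% were separated downwards and 10.2% upwards. FARSB ranged from 129 to 177 CPM in DMSO (median 155) and from 44.1 to 72.8 CPM in MAPKi (median 48.7). QARS1 ranged from 127 to 156 CPM (median 142) and from 200.4 to 248 CPM (median 227).

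EPRS1 passed in this larger comparison, at −0.22 (SE 0.03, edgeR adjusted p = 2.44e-08), though its ranges of 232 to 263 CPM in DMSO and 192 to 249 CPM in MAPKi overlapped. Scaled by total counts its change was −0.08 (edgeR adjusted p = 0.0311). CARS1 (−0.43), LARS1 (−0.23), WARS1 (−0.14), NARS2 (−0.84) and FARS2 (−0.53) likewise passed over the 12 libraries and not at 0 h. Scaled by total counts, SARS1 and HARS2 were higher besides QARS1, and 21 members were lower.

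**Figure D2:**
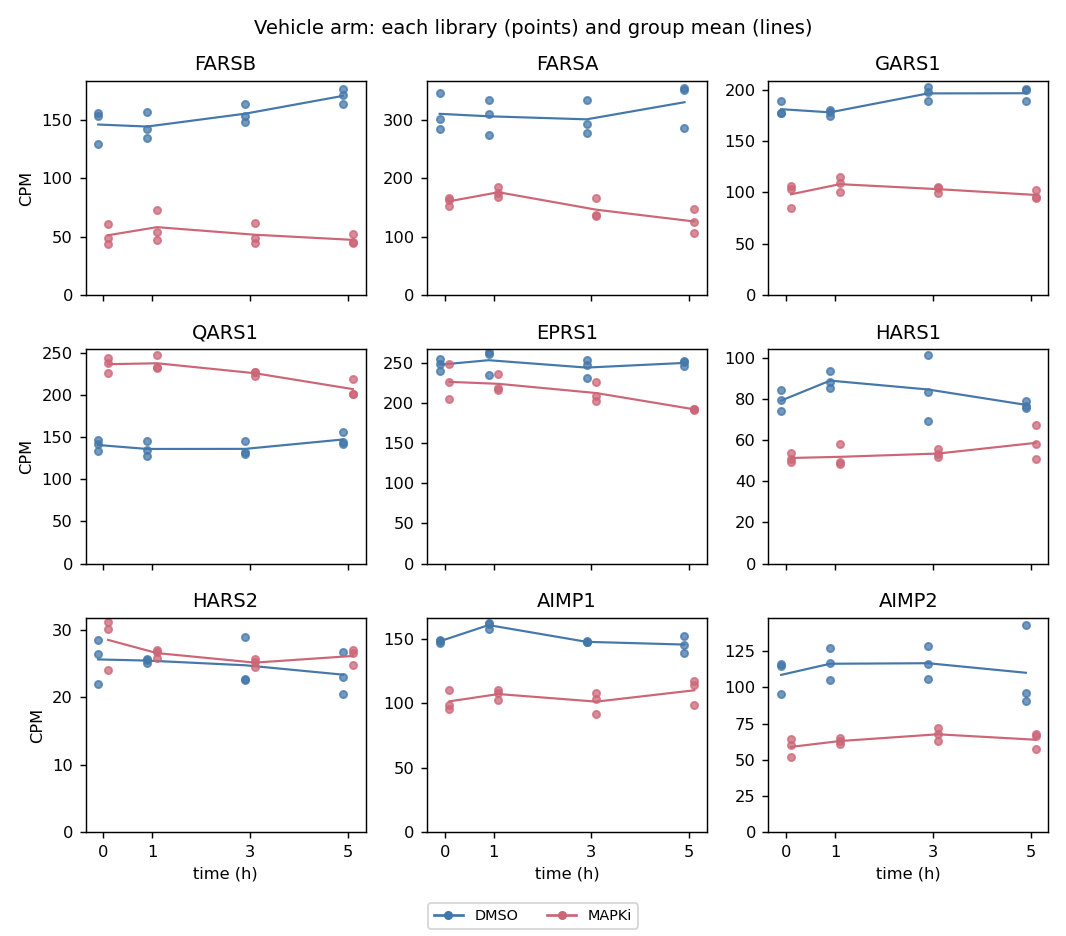
Level of 9 members in each vehicle library (points, CPM, linear axis from 0) against time, with lines through the group means of 3 libraries, for DMSO (blue) and MAPKi (red). FARSB, FARSA, GARS1, HARS1, AIMP1 and AIMP2 stay apart with MAPKi below, QARS1 stays apart with MAPKi above, and EPRS1 and HARS2 overlap.

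Time in vehicle alone moved few members. From 0 h to 5 h, 0 members passed in DMSO by edgeR and 0 by DESeq2 (all genes: 0.582% higher, 0.482% lower, 1.06% either). At an unadjusted p under 0.05 there were 2 of 33 members, against 12.1% of all genes. In MAPKi 2 passed, both lower (all genes: 2.07% lower, 1.26% higher, 3.34% either). EPRS1 fell from 227 ± 22.0 to 192 ± 0.591 CPM (mean ± SD, n = 3), a change of −0.24 (SE 0.07, edgeR adjusted p = 0.0348), and WARS1 changed by −0.35 (SE 0.09, edgeR adjusted p = 0.0142). Neither passed in any of the 3 fits that left out a replicate.

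Genes that work beside the synthetases were taken from lists set up with earlier results of these data known. Of 18 tested partners in the delivery and charging of tRNA, 4 were lower and 1 higher at 0 h, beside 24.0% and 21.9% of all genes, so the share that was lower was near the background. EEF1E1, the remaining scaffold protein of the multisynthetase complex, was lower at −1.70 (SE 0.26, edgeR adjusted p = 5.59e-08), going from 40.5 ± 11 to 12.4 ± 2.87 CPM. XPOT, which exports tRNA from the nucleus, changed by −0.73 (edgeR adjusted p = 8.47e-05), and TSFM, a mitochondrial elongation factor, by −1.03 (edgeR adjusted p = 0.00830). The gene that rose was SEPSECS, which makes selenocysteinyl-tRNA, at 0.72 (SE 0.24, edgeR adjusted p = 0.00958).

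Of 19 tested ATF4 targets outside the synthetases 7 were lower and 6 higher, beside 24.0% and 21.9% of all genes. MTHFD2, a mitochondrial folate enzyme, went from 205 ± 30.2 to 53.5 ± 2.22 CPM (−1.94, edgeR adjusted p = 7.91e-16), TRIB3, a pseudokinase, from 28.0 ± 1.91 to 10.3 ± 0.697 CPM (−1.44, edgeR adjusted p = 2.28e-09), and STC2, a secreted glycoprotein, from 9.63 ± 0.857 to 0.847 ± 0.697 CPM. ATF3, a stress transcription factor, went the other way, from 5.12 ± 1.80 to 56.9 ± 3.99 CPM (3.47, edgeR adjusted p = 2.46e-22), as did NUPR1, a chromatin protein, from 0.680 ± 0.188 to 14.0 ± 5.32 CPM. SLC7A5, the large neutral amino acid transporter, was higher too, at 0.81 (edgeR adjusted p = 6.98e-08). ATF4 mRNA itself changed by −0.27 and did not pass (edgeR adjusted p = 0.105). Among the 30 tested members with a promoter window, the 7 with a TGATGNAA match comprised 5 lower and none higher, and the 23 without a match, AIMP1 and AIMP2 included, comprised 11 lower and 1 higher.

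The next question was how the mRNAs responded when translation was stopped while transcription went on. Averaged over 3 and 5 h, CHX against vehicle in DMSO gave 7 members higher and 5 lower, against 18.3% and 13.4% of all genes. Without 1 replicate the count of members called was 6 to 9. The calls fell differently in the groups of enzymes, a contrast that was not tested. Of 17 cytosolic synthetases 0 were higher and 4 lower (EPRS1, GARS1, NARS1 and KARS1, median −0.12), and of 14 mitochondrial synthetases 6 were higher (MARS2, YARS2, WARS2, HARS2, EARS2 and LARS2, median 0.23) and IARS2 was lower, against a median of 0.01 over all genes. AIMP1 was higher at 0.20 (SE 0.05, edgeR adjusted p = 0.00191), and AIMP2 changed by −0.01.

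In MAPKi, CHX gave 6 members higher and 6 lower, against 15.9% and 13.9% of all genes, or 29.8% in either direction, and without 1 replicate 6 to 8 members were called. Of the cytosolic synthetases 6 were lower (QARS1, WARS1, EPRS1, GARS1, NARS1 and KARS1) and 2 higher (FARSB and FARSA), with a median of −0.09. Of the mitochondrial synthetases 4 were higher (AARS2, HARS2, EARS2 and LARS2) and 0 lower, with a median of 0.28, against −0.01 over all genes. Scaling by total counts gave 5 higher and 9 lower in DMSO and 9 higher and 2 lower in MAPKi, and under it the mitochondrial medians of 0.17 and 0.38 still lay above those of all genes (−0.03 and 0.08), and the cytosolic medians of −0.17 and 0.01 below.

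**Figure D3:**
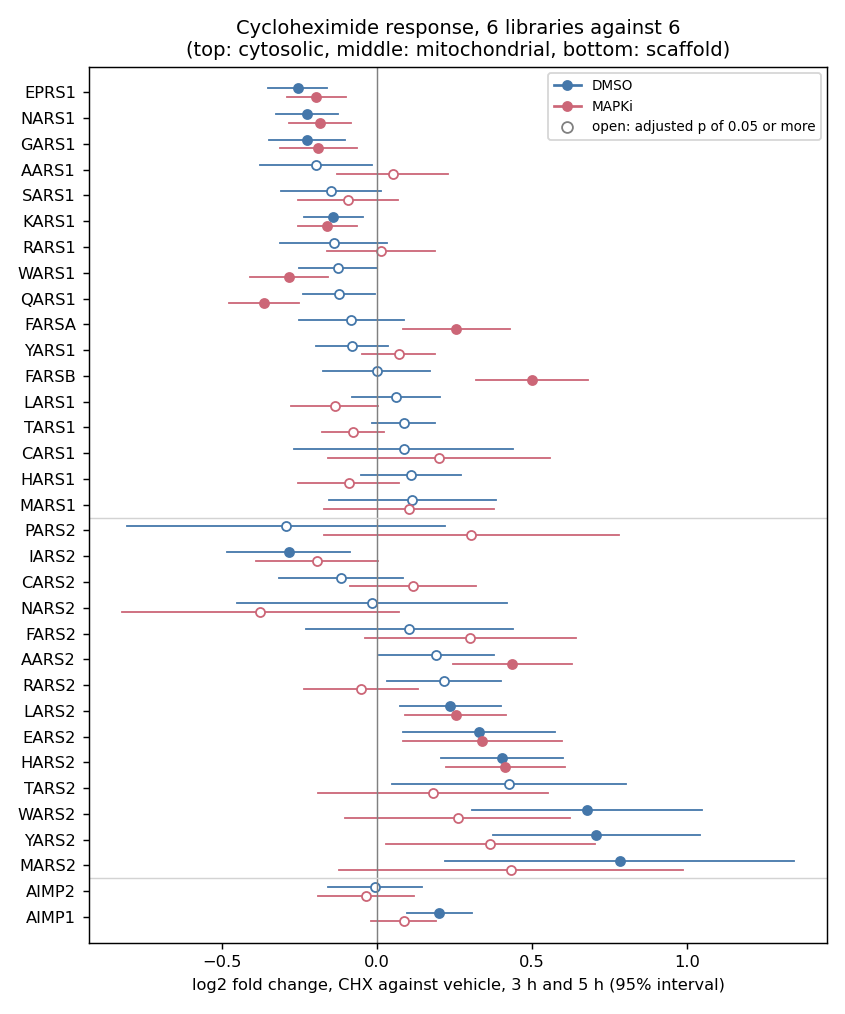
Log2 change in CHX against vehicle over 3 and 5 h for each tested member, with 95% intervals, in DMSO (blue) and MAPKi (red). Filled points passed an adjusted p of 0.05. The cytosolic block lies mostly at or below 0 apart from FARSB and FARSA in MAPKi, and most of the mitochondrial block lies above 0.

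In DMSO the largest rises were those of 3 thinly counted mitochondrial enzymes. MARS2 rose by 0.78 (SE 0.29, edgeR adjusted p = 0.0280), YARS2 by 0.71 (SE 0.17, edgeR adjusted p = 6.23e-04) and WARS2 by 0.68 (SE 0.19, edgeR adjusted p = 0.00328), followed by HARS2 at 0.40 (SE 0.10, edgeR adjusted p = 8.85e-04). Without replicate 1 or without replicate 2, MARS2 and HARS2 failed (edgeR adjusted p up to 0.189 and 0.104). WARS2 failed without replicate 1 (edgeR adjusted p = 0.0575), and YARS2 passed in all 8 alternatives. YARS2 had 30.0, 33.3 and 35.2 CPM at 3 h in CHX and 23.1, 23.4 and 20.4 CPM in vehicle, so that all CHX libraries lay above. At 5 h its CHX libraries had 28.3, 28.6 and 37.4 CPM and its vehicle libraries 17.3, 15.3 and 19.5 CPM, again without overlap.

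The falls were smaller. EPRS1 changed by −0.26 (SE 0.05, edgeR adjusted p = 1.47e-05), IARS2 by −0.28 (SE 0.10, edgeR adjusted p = 0.0238), NARS1 by −0.23 (SE 0.05, edgeR adjusted p = 2.62e-04) and GARS1 by −0.22 (SE 0.06, edgeR adjusted p = 0.00329). The fall of IARS2 failed without replicate 1 and without replicate 3 (edgeR adjusted p up to 0.245), and the other 3 passed in all 8 alternatives. At 5 h EPRS1 had 190.2, 198 and 206 CPM in CHX against 253, 252 and 246 CPM in vehicle, which did not overlap. In MAPKi the change of EPRS1 was −0.20 (SE 0.05, edgeR adjusted p = 9.72e-04) and that of GARS1 −0.19 (SE 0.06, edgeR adjusted p = 0.0179). Scaled by total counts, neither of these MAPKi changes passed (edgeR adjusted p = 0.128 for EPRS1 and 0.318 for GARS1), and that of GARS1 also failed whichever replicate was left out.

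FARSB responded to CHX in MAPKi and not detectably in DMSO. In MAPKi its vehicle libraries had 48.6, 61.9 and 44.5 CPM at 3 h and 45.1, 52.0 and 44.7 CPM at 5 h, and its CHX libraries had 76.9, 72.1 and 67.4 CPM at 3 h and 67.8, 68.5 and 64.8 CPM at 5 h. The 6 CHX libraries lay above the 6 vehicle libraries, a change of 0.50 (SE 0.09, edgeR adjusted p = 9.84e-06). In DMSO the change was 0.0004 (SE 0.09). The interaction, which tests the difference between the pretreatments, was 0.50 (SE 0.13, edgeR adjusted p = 0.00382), but it did not pass without replicate 1 (adjusted p = 0.178) or without replicate 3 (adjusted p = 0.127). FARSA rose by 0.26 in MAPKi (SE 0.09, edgeR adjusted p = 0.0191), and among mitochondrial enzymes AARS2 rose by 0.44 (SE 0.10, edgeR adjusted p = 2.36e-04), HARS2 by 0.41 (SE 0.10, edgeR adjusted p = 5.06e-04) and EARS2 by 0.34 (SE 0.13, edgeR adjusted p = 0.0386). The rise of EARS2 failed in 4 of 8 alternatives, without the filter on low counts and whichever replicate was left out (edgeR adjusted p up to 0.406).

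QARS1 went down under CHX in MAPKi. Its vehicle libraries had 227, 223 and 227 CPM at 3 h and 219, 200.4 and 201 CPM at 5 h, and its CHX libraries 189, 166 and 177 CPM and 156, 152 and 170.2 CPM. No CHX library reached the vehicle range, and the change was −0.36 (SE 0.06, edgeR adjusted p = 3.88e-07), against −0.12 (edgeR adjusted p = 0.109) in DMSO. The interaction of −0.24 (SE 0.08, edgeR adjusted p = 0.0412) passed by a small margin and failed in 6 of 8 alternatives, with adjusted p up to 0.522 when scaled by total counts. WARS1 was lower in MAPKi as well, at −0.28 (SE 0.06, edgeR adjusted p = 2.79e-04), but failed without replicate 2 (edgeR adjusted p = 0.0643). Over all genes the interaction called 4.64% higher and 6.60% lower, and FARSB and QARS1 were the members called.

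Triptolide stops new synthesis, so the share of an mRNA left at a later time reflects how long it lasts. These values were scaled on 36 stable genes and compared with the vehicle libraries at 0 h, the same libraries that entered MAPKi against DMSO. By the study's rule, a stable gene had over 0.2 CPM initially. After 3 or 5 h of triptolide its CPM was at least 1.1 times the initial value. The initial CPM also had to exceed 10% of the later one. Stable genes were thus picked for a rise in CPM in these same libraries, and scaling on them lowers the other genes. Percentages left, apart from those from summed counts, divide each library by the vehicle library of the same number, a pairing the labels do not explain. At 3 and 5 h, 22 members were lower than at 0 h in DMSO (48.7% of all genes) and 28 in MAPKi (56.1% of all genes), and none were higher (1.30% and 1.28% of all genes, with 57.4% called either way in MAPKi). The medians were −0.33 and −0.43, against −0.47 and −0.59 over all genes. At 5 h the median cytosolic synthetase kept 82.0% of its initial level in DMSO and 77.4% in MAPKi, and the median mitochondrial one 67.5% and 67.4%, against 69.3% and 63.8% over the 10673 genes with at least 10 normalized counts at 0 h.

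Direction here depends on the scaling. Scaled by TMM, which centres the typical gene, the DMSO split was 8 members higher and 2 lower, and the MAPKi split 13 and 3. Shares of all genes called are given for the main scaling only. Splits under other scalings, here and elsewhere, therefore have no background beside them. The cytosolic synthetases made up 7 and 11 of those that were higher, with EPRS1, GARS1, HARS1, KARS1, QARS1, WARS1 and YARS1 in both pretreatments, and MARS2 and PARS2 were lower under every scaling tried. Relative to the median of all genes the cytosolic median lay 0.22 higher in DMSO and 0.19 higher in MAPKi on stable genes, and 0.23 and 0.20 higher by TMM. The corresponding mitochondrial differences were −0.03 and 0.03 on either scaling.

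PARS2, the mitochondrial prolyl enzyme, had the least left of all tested members at 3 and 5 h, though not at 1 h, when it kept 98.4% ± 40.6 in DMSO and 78.1% ± 47.2 in MAPKi and NARS2 had the least, 60.5% ± 14.3 and 51.1% ± 4.75 (mean ± SD, n = 3). In DMSO its raw counts were 44, 26 and 46 at 0 h, then 6, 3 and 4 at 3 h and 0, 3 and 2 at 5 h of triptolide. In MAPKi they were 42, 26 and 44 at 0 h, then 0, 0 and 0 at 3 h and 0, 4 and 0 at 5 h. Summed over the libraries, 7.76% was left at 3 h in DMSO (exact 95% interval 4.01 to 13.8, for counting error only) and 0% in MAPKi (upper bound 2.25). At 5 h the values were 2.89% in DMSO (0.922 to 6.94) and 2.41% in MAPKi (0.646 to 6.35), with intervals that overlap. These counts are at or near the floor of 3 per library, so no fitted fold change is given. With PARS2 set to that floor the medians of the lists were the same.

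MARS2, the mitochondrial methionyl enzyme, had 18, 78 and 126 counts at 0 h in DMSO and 6, 8 and 29 at 5 h, which summed to 13% of the initial level (exact 95% interval 9.15 to 18.1). In MAPKi the counts were 78, 16 and 78, then 11, 4 and 2, or 6.68% (3.80 to 11). The fitted changes over 3 and 5 h were −2.48 (SE 0.37, edgeR adjusted p = 1.77e-08) and −3.83 (SE 0.43, edgeR adjusted p = 1.23e-12), from replicates that varied widely. YARS2 kept 44.5% ± 17.3 in DMSO and 24.8% ± 1.74 in MAPKi at 5 h, and HARS2 53.3% ± 2.62 and 46.6% ± 11.9 (mean ± SD, n = 3). The fitted changes over 3 and 5 h were −0.91 (SE 0.21, edgeR adjusted p = 1.99e-04) and −1.60 (SE 0.23, edgeR adjusted p = 9.89e-09) for YARS2, and −0.75 (SE 0.12, edgeR adjusted p = 2.61e-07) and −0.91 (SE 0.12, edgeR adjusted p = 8.37e-10) for HARS2. NARS2 changed by −0.65 in DMSO (SE 0.26, edgeR adjusted p = 0.0311) and by −0.92 in MAPKi (SE 0.27, edgeR adjusted p = 0.00284).

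Among cytosolic genes RARS1 kept the least at 5 h, 64.9% ± 6.19 in DMSO and 47.2% ± 11.2 in MAPKi, whereas EPRS1 kept 84.5% ± 5.58 and 76.2% ± 5.96 and QARS1 85.0% ± 2.79 and 81.2% ± 2.53. AIMP2 kept 65.2% ± 5.11 and 47.7% ± 7.70, and its 3 MAPKi libraries, at 52.3%, 38.9% and 52.1%, lay below its 3 DMSO libraries, at 71.1%, 62.4% and 62.1%. The decay interaction asks whether the change after triptolide differed between MAPKi and DMSO. It called 0 members by edgeR and 0 by DESeq2 (3.17% of all genes by edgeR, 2.76% lower in MAPKi). At an unadjusted p under 0.05 there were 4 members, against 13% of all genes, so their share was near the background. The faster loss in MAPKi seen in single members therefore did not pass a test of the difference.

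**Figure D4:**
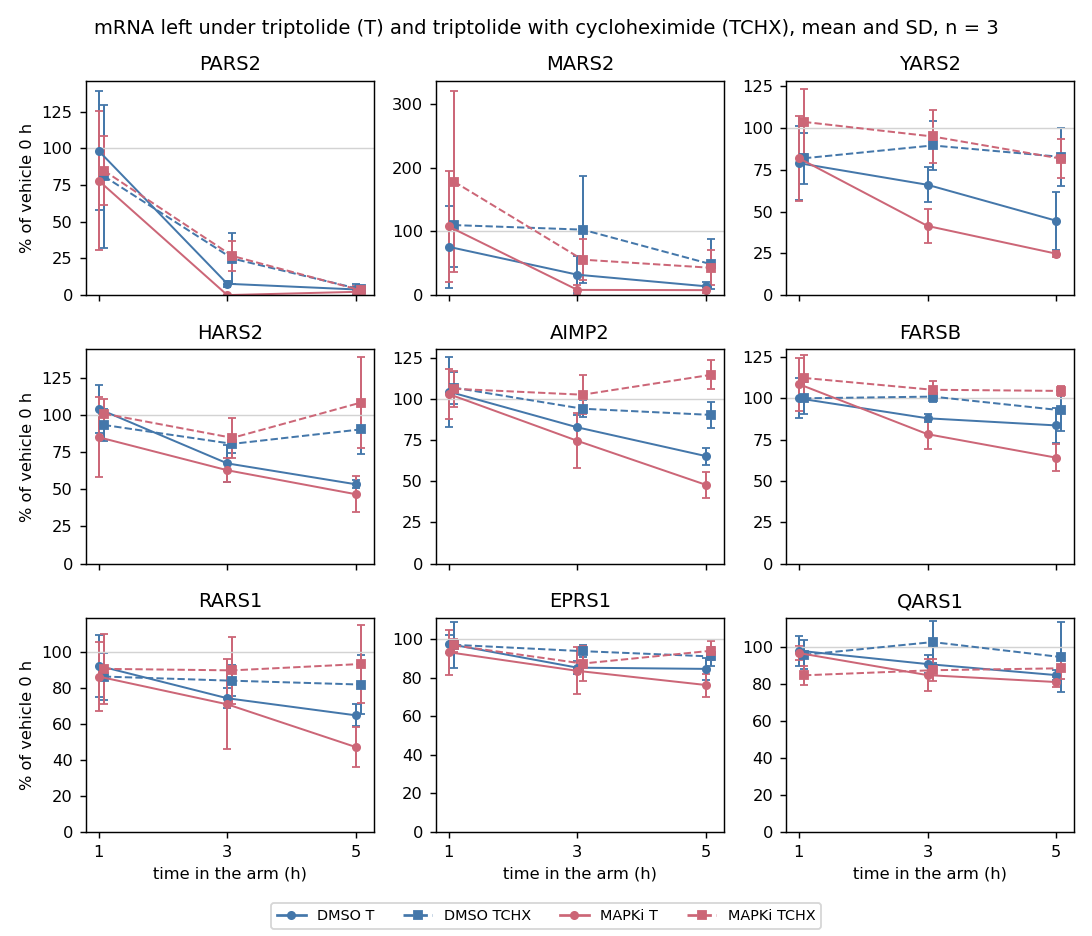
Share of the vehicle level at 0 h that was left at 1, 3 and 5 h, in percent on stable-gene scaling (mean and SD of 3 libraries), under T (solid, circles) and TCHX (dashed, squares) in DMSO (blue) and MAPKi (red). PARS2 and MARS2 drop lowest under T, the dashed lines of YARS2, AIMP2 and FARSB stay above the solid ones at 3 and 5 h, and the lowest mean of EPRS1 or QARS1 is 76.2%, that of EPRS1 under T in MAPKi at 5 h.

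With CHX added to triptolide, more mRNA was left. In DMSO 14 members were higher in TCHX than in T (28.4% of all genes, with 0.468% lower), with a median of 0.18 against 0.23 over all genes, and in MAPKi 24 were higher (41.4%), with a median of 0.34 against 0.34. Without 1 replicate 6 to 8 members were called in DMSO and 18 to 21 in MAPKi. In DMSO 6 cytosolic synthetases, 6 mitochondrial ones and both scaffold genes were called, and in MAPKi 12, 10 and both. Scaled by TMM the DMSO split was 3 higher and 2 lower, and the MAPKi split 6 higher (AIMP2, HARS2, MARS2, PARS2, RARS1 and YARS2) and 8 lower, 6 of them cytosolic. Scaled by total counts, 5 were higher in DMSO, while the MAPKi split was 12 higher and 4 lower. No share of all genes is given beside the splits under these scalings. Against the median of all genes the cytosolic median differed by −0.003 and the mitochondrial median by 0.23 in MAPKi.

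MARS2 had the largest fitted rise in DMSO, 1.46 (SE 0.33, edgeR adjusted p = 2.54e-04), with 28, 77 and 61 raw counts at 3 h in TCHX against 19, 50 and 4 in T. YARS2 rose by 0.67 (SE 0.18, edgeR adjusted p = 0.00165), FARS2 by 0.52 (SE 0.17, edgeR adjusted p = 0.0129) and AARS2 by 0.51 (SE 0.11, edgeR adjusted p = 4.97e-05). The rise of FARS2 failed in 4 of 9 alternatives: by TMM, by total counts, without replicate 2 and without replicate 3 (edgeR adjusted p up to 0.213). That of YARS2 failed by TMM only, and that of AARS2 passed in all 9. In MAPKi MARS2 rose by 2.39 (SE 0.41, edgeR adjusted p = 8.75e-07) and YARS2 by 1.45 (SE 0.20, edgeR adjusted p = 1.96e-09). PARS2 passed in MAPKi (edgeR adjusted p = 8.14e-05), where its counts at 3 h were 7, 8 and 14 in TCHX and 0 in all 3 T libraries. At 5 h its TCHX counts were 1, 3 and 1 beside 0, 4 and 0 in T, which are indistinguishable at this depth.

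AIMP2 was the 1 member for which the response to CHX under triptolide passed a test of the difference between the pretreatments. At 5 h of TCHX its MAPKi libraries held 119%, 104% and 120.0% of the initial level, and its DMSO libraries 99.4%, 84.8% and 86.4%. All MAPKi libraries lay above the DMSO ones in TCHX at 5 h, the reverse of their order in T at that time. At 3 h the pretreatments overlapped in both arms, with 116%, 96% and 95.1% in MAPKi against 98.6%, 88.2% and 95% in DMSO under TCHX, and 70.0%, 60.4% and 92.9% against 91.3%, 77.4% and 79.3% under T. The rise from T to TCHX was 0.33 in DMSO (SE 0.08, edgeR adjusted p = 2.94e-04) and 0.87 in MAPKi (SE 0.08, edgeR adjusted p = 3.48e-16). The interaction was 0.54 (SE 0.11, edgeR adjusted p = 3.10e-04, 6.82% of all genes called higher and 7.11% either way), and without replicate 2 its adjusted p was 0.0602. AIMP1 rose by 0.19 in DMSO and 0.42 in MAPKi, a difference of 0.23 that did not pass (edgeR adjusted p = 0.0721), nor did that of FARSB, 0.39 (edgeR adjusted p = 0.0692).

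The study's TDD index, for translation-dependent decay, expresses this protection per gene as the normalized count in TCHX minus that in T, over the initial count, so that a higher index means more mRNA kept when translation is stopped. By the study's rule, an unadjusted p of at most 0.05 in a linear model, the index was higher in MAPKi for 6 of 33 members (FARSB, RARS1, RARS2, YARS2, AIMP1 and AIMP2) and lower for 0, against 14.7% and 1.36% of the 10673 genes with an index. The share of members that was higher was thus near the background. None of the 33 passed after adjustment, which 0.122% of all genes did. The members' median index was 0.106 in DMSO and 0.205 in MAPKi, against 0.118 and 0.180 over all genes. The index uses the same libraries as TCHX against T and is another view of them.

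AIMP2 had the index with the largest difference, 0.182 ± 0.017 in DMSO and 0.474 ± 0.111 in MAPKi (mean ± SD, n = 3). YARS2 went from 0.309 ± 0.031 to 0.552 ± 0.085, FARSB from 0.111 ± 0.048 to 0.337 ± 0.051, and RARS1 from 0.134 ± 0.081 to 0.326 ± 0.059. AIMP1 went from 0.106 ± 0.056 to 0.236 ± 0.054 and RARS2, the mitochondrial arginyl enzyme, from 0.088 ± 0.109 to 0.197 ± 0.086. The phenylalanyl subunits differed in outcome, since FARSA, at 0.261 ± 0.076 and 0.312 ± 0.086, did not pass. QARS1 (0.108 and 0.050) and WARS1 (0.102 and 0.003) had lower means in MAPKi without passing. Scaled by TMM, 2 members were higher and 3 lower in MAPKi, with no share of all genes given beside them.

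**Figure D5:**
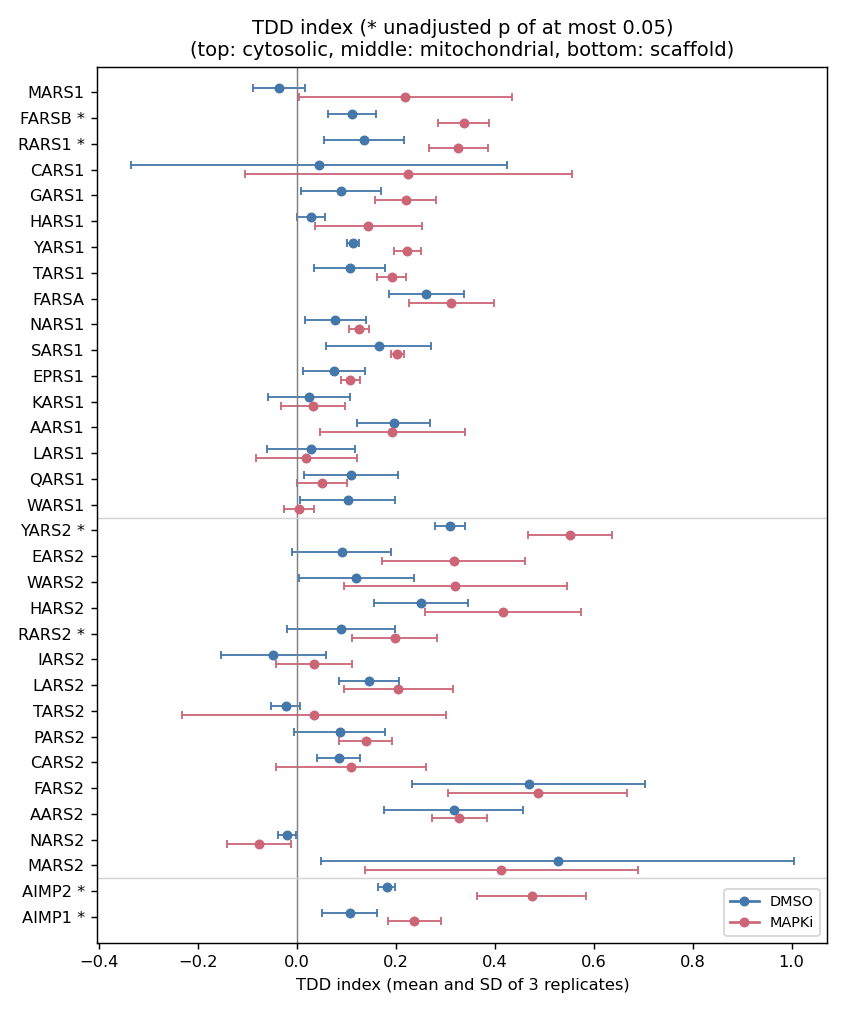
TDD index of each tested member in DMSO (blue) and MAPKi (red), as mean and SD of 3 replicates, sorted within cytosolic, mitochondrial and scaffold genes by the difference between the pretreatments. Asterisks mark the 6 members with an unadjusted p of at most 0.05, none of which passed after adjustment. Of these AIMP2 has the largest difference, and among all members the SDs of MARS2 and CARS1 are the widest.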

How the data were processed

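Gene counts of 96 QuantSeq 3′ libraries of cytoplasmic RNA from A375 cells were used as deposited. Per the submitters' notes and the study's methods, the authors trimmed reads with fastp 0.20.1, aligned them to GRCh38 with HISAT2 2.2.1 and counted exons with HTSeq 0.13.5, without molecular identifiers. The strand setting is not given in the sources used here.

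Genes were tested with edgeR 4.0.16 (quasi-likelihood, R 4.3.3) over all 96 libraries with 1 mean per group. Genes passing filterByExpr were kept, and p-values were Benjamini-Hochberg adjusted over all 14948 of them. Scaling was by TMM, or, wherever triptolide entered, by DESeq2 1.42.0 size factors over 36 stable genes. The TDD index used a linear model with pretreatment, time and replicate. DESeq2, other scalings, no filter, a replicate block and leaving out each replicate were alternatives. The fits were tested on simulated data.

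Every member was to be named, with full statistics for EPRS1, AIMP1 and AIMP2 in MAPKi against DMSO and for the 4 called members with the largest change in each direction. From related lists the 3 called genes with the lowest adjusted p in each direction were named. The members and lists were chosen with earlier results of these data known.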

Additional observations from a re-analysis of the deposited data

Results flagged for a closer look

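In 3 results the effect of an inhibitor differed between the pretreatments by a test of the difference itself. The response of FARSB to CHX was larger in MAPKi by 0.498 on the log2 scale (edgeR adjusted p = 0.00382). It passed in 6 of 8 alternatives and failed without replicate 1 (0.42, edgeR adjusted p = 0.178) and without replicate 3 (0.42, edgeR adjusted p = 0.127).

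The response of QARS1 to CHX was more negative in MAPKi, with a difference of −0.241 (edgeR adjusted p = 0.0412). It passed in 2 of 8 alternatives, the replicate block and the DESeq2 Wald test, and scaled by total counts it was −0.09 (edgeR adjusted p = 0.522).

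The rise of AIMP2 from T to TCHX was larger in MAPKi, with a difference of 0.540 (edgeR adjusted p = 3.10e-04). It was positive in all 9 alternatives, from 0.39 by TMM to 0.69 without replicate 3, and failed without replicate 2 (0.47, edgeR adjusted p = 0.0602).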

How the results depend on the processing

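The count of members called in MAPKi against DMSO stayed within 1.5 times its value under each alternative, at 15 to 19 at 0 h and 24 to 26 over the vehicle times, as did the TDD count at 4 to 7. Scaling moved the triptolide counts most. By total counts, T against 0 h called 5 members in DMSO and 8 in MAPKi, TCHX against T called 5 in DMSO, the CHX interaction called 7 and the 5 h against 0 h comparison in MAPKi called 1. By TMM, T against 0 h called 10 in DMSO and 16 in MAPKi, TCHX against T called 5 and 14, the decay interaction 1 and the TCHX interaction 2. Without the filter on low counts, 5 h against 0 h called 1 in DMSO and 0 in MAPKi, CHX in MAPKi called 6 and the TCHX interaction 3. The DESeq2 Wald test called 4 for 5 h against 0 h in MAPKi and 5 for the TCHX interaction. Leaving out 1 replicate gave 6 to 9 for CHX in DMSO, 6 to 8 for CHX in MAPKi, 0 to 1 for the CHX interaction, 0 to 0 for 5 h against 0 h in MAPKi, 6 to 8 and 18 to 21 for TCHX against T in DMSO and MAPKi, and 0 to 1 for the TCHX interaction. The cause was not tested, except that leaving out a replicate leaves fewer samples. Same-numbered libraries deviated together with correlations of −0.130 to 0.283 over 10 pairs of groups. The labels do not say what a number marks, though the column names of the counts carry the same prefix for each number in all groups. The study's TDD model also has a replicate term. The main edgeR tests nevertheless did not pair the libraries by number. The percentages left per library and the TDD index did, since each was formed from libraries of the same number. Of 96 libraries, 64 were on average closest to their own number, a hint from the data that they may share something. With the replicate block, the members called were 19 and 25 in MAPKi against DMSO at 0 h and over vehicle times, 0 and 3 for 5 h against 0 h in DMSO and MAPKi, 12 and 12 for CHX, 3 for the CHX interaction, 23 and 28 for T against 0 h, 0 for the decay interaction, 14 and 24 for TCHX against T and 2 for the TCHX interaction. The TDD count without the block was 5.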
